A study of Mus musculus with 8 samples.

Results

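Histone genes were followed in poly-A selected RNA of whole mouse brains at E14.5. The members were protein-coding genes whose symbols matched set patterns for histone H1, H2A, H2B, H3, H4 or macroH2A. Histone genes under other symbols, such as *H2aw* and *Cenpa*, were outside the rule. The rule was met by 70 of the 33971 genes in the count table (70 of 18030 protein-coding genes). Of these, 58 were replication-dependent (RD) genes and 12 were genes of variant histones. The embryos were wild-type, and they differed in the diet of the mother, which was a choline-deficient diet (CDD) or normal chow (ND) from the day of mating. Each diet had 4 brains, 8 in all. The sources used here give neither the strain nor which embryos shared a mother, so the p-values measure only the spread between these 8 brains. The comparison asks which RNAs of the embryonic brain differ when the mother lacks choline, a nutrient for membrane lipids and a source of methyl groups.

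Histones are the proteins around which DNA is wound, and H1 binds the linker DNA between nucleosomes. RD histone genes lie in clusters and are transcribed in S phase, when new DNA must be packaged. Their mRNAs are unusual in that they usually end in a short stem-loop rather than in a poly-A tail, although some RD genes can also give longer polyadenylated transcripts. Variant histones are made throughout the cell cycle, mostly from single genes with introns and polyadenylated mRNAs. H2AX is an intermediate case, since its gene can give both a stem-loop and a polyadenylated mRNA. The libraries were made from RNA caught on poly-T beads, so the reads of an RD gene count the part of its RNA that these beads retained.

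The RD genes comprised 6 H1, 13 H2A, 17 H2B, 10 H3 and 12 H4 genes. Of them, 50 lay on chromosome 13, 5 on chromosome 3, 2 on chromosome 11 and 1 on chromosome 6. The variants comprised 3 H1, 6 H2A and 3 H3 genes spread over 8 chromosomes. The authors' table lists *H3f4*, counted here with the variants, and *H2bu1-ps*, counted with the RD genes, as protein-coding, while GENCODE M21 lists both as pseudogenes.

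The letters of both kinds of 3′ end were looked up in the GENCODE M21 transcripts of each gene (mouse build GRCm38). The histone stem-loop was searched as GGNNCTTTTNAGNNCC on the transcribed strand, and the poly-A signal as AATAAA or ATTAAA in the last 40 bases of a coding transcript. The stem-loop letters were found in 38 of 58 RD genes and in 1 of 12 variants, *H2ax*. In the whole annotation 89 of 55450 genes held them (0.161%), and 39 of these 89 were members. The stem-loops below are shown because they belong to the RD genes with the most reads, to the RD gene with the lowest adjusted p in the diet comparison (*H2ac20*) and to *H2ax*. Capitals mark the stem-loop letters, and each sequence is written 5′ to 3′ as in the transcript.
H2bu2 stem-loop (chr11:58949344-58949369, plus strand): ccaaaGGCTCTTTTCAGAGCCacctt
H1f2 stem-loop (chr13:23739507-23739532, plus strand): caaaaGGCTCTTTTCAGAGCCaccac
H4c9 stem-loop (chr13:22040961-22040986, minus strand): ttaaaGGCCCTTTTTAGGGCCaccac
H2ac20 stem-loop (chr3:96220413-96220438, minus strand): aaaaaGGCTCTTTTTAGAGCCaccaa
H2ax stem-loop (chr9:44335235-44335260, plus strand): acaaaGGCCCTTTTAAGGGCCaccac

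Most RD stem-loops were spelled alike. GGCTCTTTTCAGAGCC, as in *H2bu2* and *H1f2*, stood in 21 of the 38 genes, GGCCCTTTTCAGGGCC in 7 and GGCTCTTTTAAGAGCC in 6. The spelling of *H4c9* was found in 2 RD genes and that of *H2ac20* in 1, and a further spelling, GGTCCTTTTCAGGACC, in 1, *H4c11*. The 16 letters of *H2ax*, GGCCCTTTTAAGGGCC, were in no other member. Its annotated transcript went on for 822 bases after the stem-loop and ended near a poly-A signal.

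A poly-A signal near the end was found in 9 of 12 variants and in 15 of 58 RD genes, beside 76.0% of all coding genes (16654 of 21901). The poly-A signals below are those of the most abundant RD genes that had one and of 3 variants whose levels did not overlap between the diets. Capitals mark the signal.
H2bu2 poly-A signal (chr11:58949495-58949524, plus strand): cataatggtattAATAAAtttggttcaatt
H2bc21 poly-A signal (chr3:96223705-96223734, plus strand): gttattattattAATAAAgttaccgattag
H1f2 poly-A signal (chr13:23740330-23740359, plus strand): gtgtatgcttctAATAAAaagcgtttagtt
H4c9 poly-A signal (chr13:22040639-22040668, minus strand): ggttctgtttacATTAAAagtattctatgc
H2ax poly-A signal (chr9:44336031-44336060, plus strand): tgggctaattttATTAAAggatcgtttggt
H2az1 poly-A signal (chr3:137866885-137866914, plus strand): ctctgcttactaATTAAAcagtgcatctgt
H3f3a poly-A signal (chr1:180800836-180800865, minus strand): aatttgaaaaatAATAAAagtaccaataga

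In *H2bu2*, *H1f2* and *H4c9* the poly-A signal lay downstream of the stem-loop. Their annotated transcripts ran 169, 840 and 330 bases past it. The annotated transcripts of *H2bc21* and *H2bc4* held no stem-loop letters, and that of *H2bc4* held no poly-A signal near its end either. A match of letters is a description of the annotation and does not show which end the RNA in these brains had. A missing match can also mean that the annotated transcript stops before the end of the RNA.

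The libraries held 31770217 (ND replicate 2) to 43121170 (CDD replicate 3) counted reads each. CDD replicate 2 stood apart from the others by its Hox genes, which mark hindbrain and spinal cord. It had 4984 counts over 28 Hox genes, whereas the other brains had 16 to 112, so results below are also given without it where it matters. Markers of the labelled tissue were abundant, with 6248 to 7071 CPM summed over 8 genes of postmitotic neurons and 1399 to 1696 CPM over 8 genes of neural progenitors. Liver genes, which a brain should lack, summed to 0.322 to 0.719 CPM. CPM is the usual unit of reads relative to library size, scaled here by TMM, a factor that allows for a few abundant genes taking up a library.

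RD genes took a small part of the histone reads. Over the 8 brains they received 37548 reads, with a median of 61.5 reads a gene, against 739648 reads and a median of 42735.5 for the variants. Of the 58 RD genes, 53 averaged under 1 CPM, and 18 were at 0 in 1 or more brains. Only *H1f8*, the linker histone of the oocyte, with 8 reads in all, and *H3f4*, with 228, were as low among the variants. The other 10 variants averaged at least 1 CPM.

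Per kilobase of listed gene length, the variants *H3f3b* and *H3f3a* had the highest levels, at 237.5 and 223.9 CPM per kb. They encode the same protein, H3.3, which is placed into chromatin outside replication. The RD gene *H2bu2*, an H2B gene on chromosome 11, came next at 137.6 CPM per kb. It was followed by *H2az1* at 118.2, which encodes H2A.Z of promoter nucleosomes, and by *H1f0* at 115.3, a linker histone of differentiating cells. *Macroh2a2* had 96.3 CPM per kb, *H2ax* 75.9, *H2az2* 58.0, *H1f10* 55.9, *Macroh2a1* 29.5 and *H2aj* 17.4. After *H2bu2* the RD genes dropped to 7.31 for *H4c9*, 7.29 for *H2bc21*, 4.14 for *H1f2*, 3.89 for *H2bc4* and 1.98 or less for all others. The listed length joins all annotated exons, so a gene with several long ends is set too low on this scale.

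**Figure D1:**
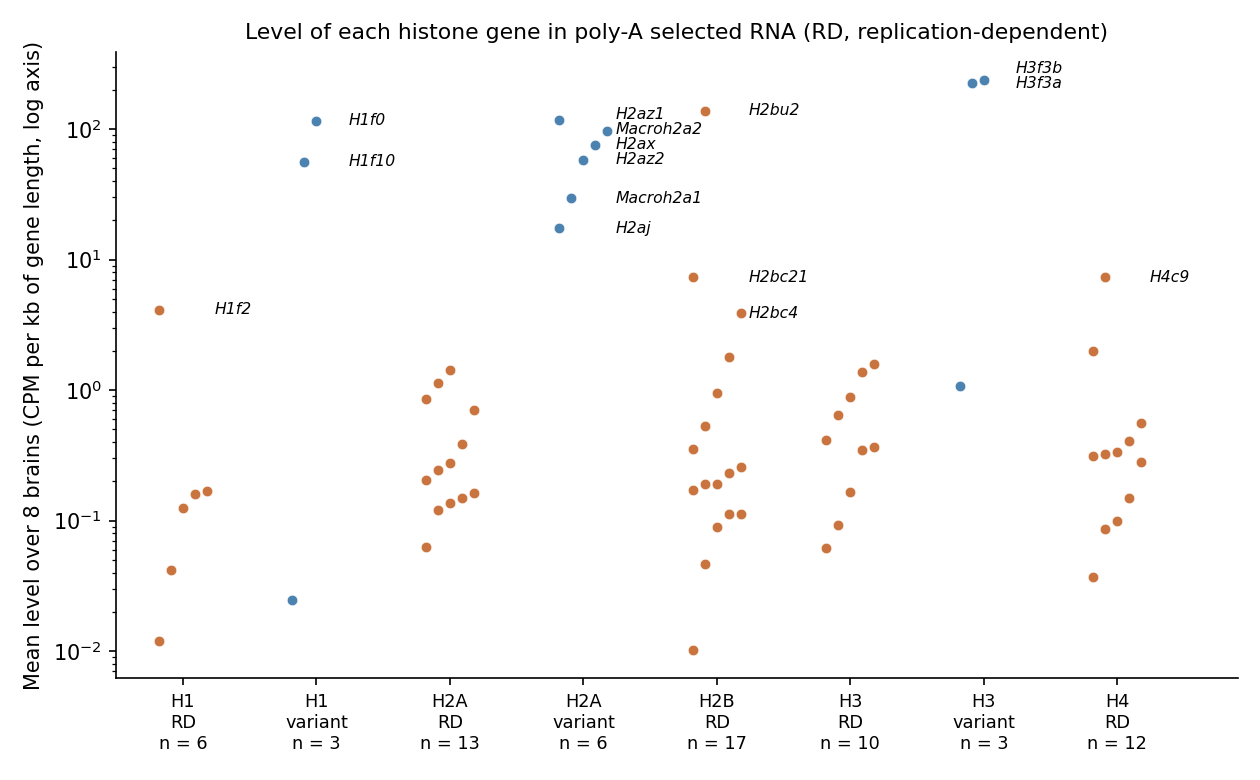
Mean level of the 70 histone genes over the 8 brains, in CPM per kb of listed gene length on a log axis, by histone family and class (orange, RD; blue, variant); each point is 1 gene, and names are given for genes from 3 CPM per kb. Apart from H3f4 and H1f8 the variants lie at 17.4 CPM per kb or higher, where H2bu2 is the only RD gene.

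*H2bu2* alone held 63.0% of all RD reads. Together with *H2bc21*, *H1f2*, *H4c9* and *H2bc4* it held 89.4%, or 33563 reads, and the other 53 RD genes shared 3985. A poly-A signal near the annotated end was found in 4 of these 5 genes and in 11 of the other 53, and the 15 RD genes with one held 88.5% of RD reads. The 11 RD genes with both a stem-loop and a poly-A signal held 74.2%, most of it *H2bu2*, and the 27 with a stem-loop only held 5.65%. Among genes with a stem-loop, the median was 129 reads with a poly-A signal and 57 without. Shared sequence was uneven between these groups. Some genes with a stem-loop only share most of their windows with other genes, such as *H2ac23* (92.7%) and *H4c17* (88.1%). Where both were found, the highest share was 38.5%, in *H4c8*. The part of lost or split reads in these medians was not tested. The 4 RD genes with the signal and no stem-loop had a median of 20.5 reads, although *H2bc21* was among them, and *H2bc23* and *H2bc24*, also among them, share 94.6% and 85.8% of their windows with other genes. The 16 RD genes with neither had a median of 30, and *H2bc4*, with 1265 reads, was one of them. Shared windows were common here too, as in *H3c10* (92.0%). Several of the 16 have short annotated transcripts, such as *H4c12* with 312 bases and *H2bc13* with 381. For these, a missing 3′ end in the annotation cannot be told from an end without the letters.

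The length of annotated transcript past the stem-loop also differed among RD genes. In 17 genes it was at most 60 bases, and the highest of these had 192 reads in all brains together. The 20 genes with more than 100 bases past the stem-loop had a median of 92.5 reads, and the other 18 had 43.0. Annotated ends are themselves drawn from sequenced RNA, and a longer gene collects more reads, so these values describe the annotation and the reads side by side. Sequence shared with other genes was not taken into account. It covered 92.7% of windows in *H2ac23*, with 31 bases past the stem-loop, and 61.6% in *H3c15*, with 377.

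**Figure D2:**
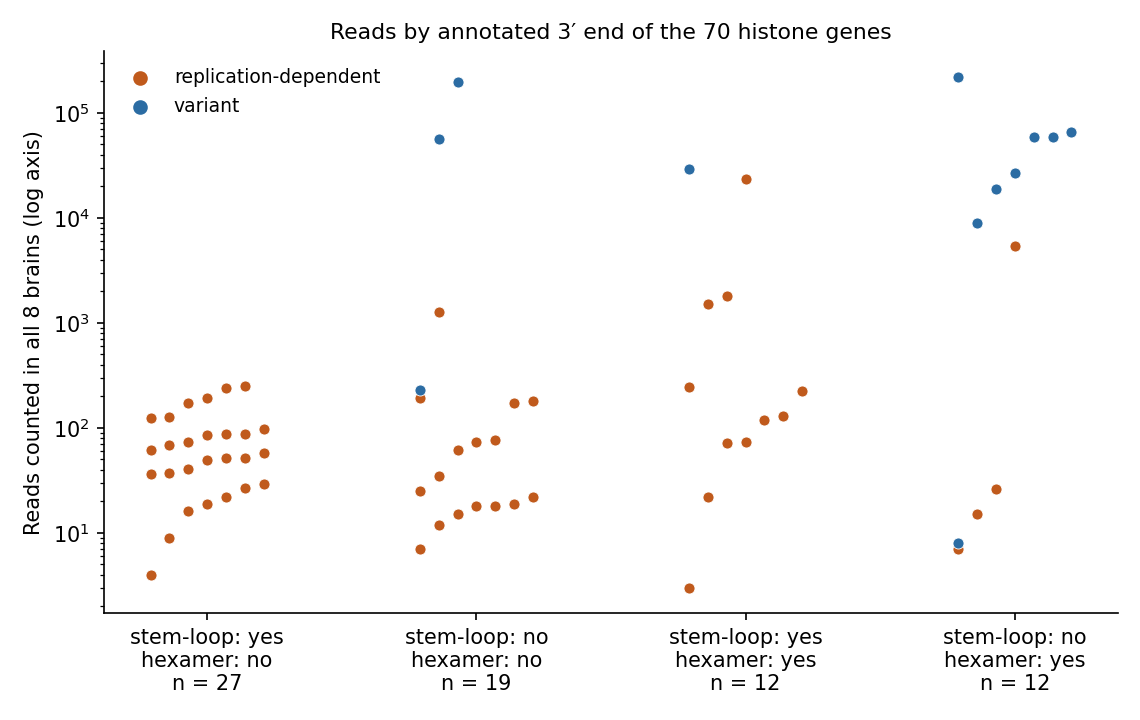
Reads counted in all 8 brains together (log axis) for each of the 70 histone genes, by whether the GENCODE M21 transcripts hold the stem-loop letters and a poly-A hexamer near the end; each point is 1 gene (orange, RD; blue, variant). The 27 genes with a stem-loop only are all RD genes and hold 2121 reads together, while H2bu2, in the third column, holds 23659.

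Neighbouring genes of 1 cluster differed widely. On chromosome 3, *H2ac21*, *H2ac20* and *H2bc21* follow one another from 96127181 to 96131054 in the authors' coordinates, whose build is not given in the sources used here. They received 19, 127 and 5337 reads. On chromosome 11, *H2bu2* received 23659 reads and its neighbour *H2bu1-ps* 194. *H2aw*, another neighbour that lay outside the rule, received 5673. Sequence shared between copies limits such comparisons. In 20 members over 50% of the 100-base windows of the annotated transcript also occur in another gene, among them *H3c15*, *H3c10*, *H4c12* and *H2ac23*. For *H2bu2*, *H2bc21* and *H1f2* the share was 4.85%, 0.00% and 5.07%. It was 15.1% for *H4c9* and 25.4% for *H2bc4*.

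The diets were compared with edgeR's quasi-likelihood test across all 19367 genes that passed a filter on low counts, with Benjamini-Hochberg adjustment over all of them. Of all genes tested, 8.83% passed an adjusted p of 0.05 (4.24% higher and 4.59% lower in CDD). The filter passed 33 members, of which 22 were RD genes and 11 variants. It asked for about 0.291 CPM in at least 4 of the 8 brains, so a gene could pass through 1 diet. Among the RD genes that passed, 6 had fewer than 4 CDD brains above that level and 8 had fewer than 4 ND brains. The 36 RD genes that did not pass had 0 to 22 reads in a brain.

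Of the variants, 2 of 11 rose in CDD brains and 0 fell, beside 4.24% and 4.59% of all genes. These were *H2ax* and *H2az1*. Of the 22 RD genes tested, 0 passed in either direction. By limma-voom 2 variants and 0 RD genes passed, and DESeq2 gave the same counts but no adjusted p for 17 of the 22 RD genes. At an unadjusted p under 0.05 stood 5 variants and 1 RD gene, beside 23.9% of all genes. The median log2 fold change of CDD over ND was 0.07 in the variants, 0.19 in the RD genes and -0.00 in all genes tested. The RD median includes genes that passed the filter mainly through 1 diet, so no direction is read from it. The RD genes were measured much less precisely, since the median standard error (SE) of their log2 fold change was 0.28 against 0.05 in the variants.

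*H2ax* encodes H2A.X, whose phosphorylated form marks DNA breaks. Its level in the CDD brains was 121.6, 116.2, 117.1 and 111.2 CPM, and in the ND brains 95.3, 98.4, 91.8 and 89.3 CPM. No ND brain reached the lowest CDD brain. The means were 116.5 ± 4.24 and 93.7 ± 4.00 CPM (SD, n = 4), and the log2 fold change was 0.32 (SE 0.04, edgeR adjusted p = 0.000778), or 1.24-fold. It passed under each of 15 alternative settings, with adjusted p between 1.29e-08 and 0.00788, and without CDD replicate 2 the log2 fold change was 0.32 (edgeR adjusted p = 0.00177).

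*H2az1* reached 232.5, 212.9, 228.2 and 216.4 CPM in the CDD brains and 196.6, 211.6, 190.5 and 190.1 CPM in the ND brains. The diets did not overlap, but the lowest CDD brain and the highest ND brain, replicate 2 of each diet, nearly touched. The means were 222.5 ± 9.31 and 197.2 ± 10.05 CPM (SD, n = 4), a log2 fold change of 0.17 (SE 0.05, edgeR adjusted p = 0.0272), or 1.13-fold. It passed in 11 of 15 alternatives. Without CDD replicate 1 the edgeR adjusted p was 0.0614, and without ND replicate 1, 3 or 4 it was 0.0857, 0.126 and 0.118. Without CDD replicate 2 it stayed at 0.0296. Of its 100-base windows 29.7% occur in other genes, the most among the variants, so part of its reads may have been assigned elsewhere. Its sister *H2az2*, which encodes a second H2A.Z protein, had 104.7, 89.6, 104.0 and 90.2 CPM in CDD and 92.4, 101.1, 87.8 and 88.0 CPM in ND. These ranges overlapped (log2 fold change 0.07, SE 0.06, edgeR adjusted p = 0.490).

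**Figure D3:**
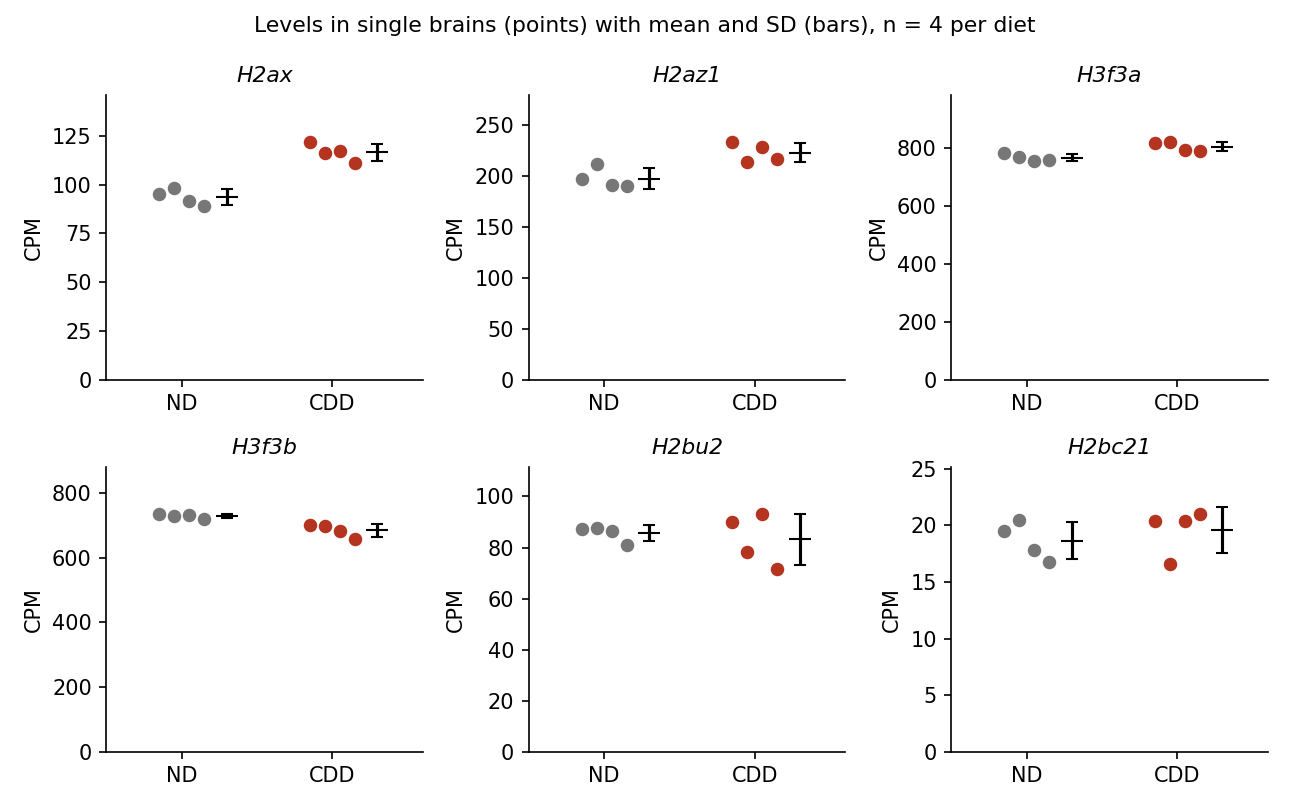
Level in CPM of 6 histone genes in each brain (points; grey, ND; red, CDD) with the mean and SD of the 4 brains of each diet (bars); every axis starts at 0. For H2ax, H2az1 and H3f3a no ND brain reaches the lowest CDD brain, for H3f3b the order is the opposite, while the RD genes H2bu2 and H2bc21 overlap between the diets.

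The diets also did not overlap in the H3.3 genes, in opposite directions. *H3f3a* stood at 818.0, 818.3, 791.5 and 787.7 CPM in CDD and at 781.3, 768.9, 753.1 and 758.0 CPM in ND (log2 fold change 0.07, SE 0.05, edgeR adjusted p = 0.372). *H3f3b* stood at 701.7, 696.9, 684.0 and 657.9 CPM in CDD and at 733.8, 728.8, 732.6 and 719.4 CPM in ND (log2 fold change -0.09, SE 0.05, edgeR adjusted p = 0.250). Neither passed the test. In all, 3 of 11 variants were higher in every CDD brain and 1 was lower, against 0 and 0 of the 22 RD genes. Among all genes tested the shares were 7.65% and 7.39%.

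As a share of the reads of both H3.3 genes, *H3f3a* made up 53.8%, 54.0%, 53.6% and 54.5% in the CDD brains and 51.6%, 51.3%, 50.7% and 51.3% in the ND brains. The lowest CDD share lay above the highest ND share, with means of 54.0 ± 0.364% and 51.2 ± 0.375% (SD, n = 4). This share was formed after the values of both genes had been seen, and it is given without a test. Processed copies of *H3f3a* were listed as genes of their own, and they received 2692 reads (*H3f3a-ps1*), 280 (*H3f3a-ps2*) and 843 (*H3f3c*), against 219020 for *H3f3a*. An antisense gene, *H3f3aos*, received 910.

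The other variants did not pass. *H1f0* had 257.2, 231.9, 254.7 and 241.6 CPM in CDD and 219.7, 237.5, 228.7 and 224.9 CPM in ND (log2 fold change 0.11, SE 0.05, edgeR adjusted p = 0.134). The macroH2A genes encode large H2A variants of silenced chromatin. *Macroh2a2* had 203.5, 224.5, 214.6 and 224.1 CPM in CDD and 195.5, 208.2, 203.1 and 201.3 CPM in ND (log2 fold change 0.10, edgeR adjusted p = 0.167). *Macroh2a1* had 206.3, 201.3, 209.4 and 202.0 CPM against 195.2, 208.9, 194.2 and 187.9 CPM (log2 fold change 0.06, edgeR adjusted p = 0.443). In these 3 genes the CDD mean was above the ND mean, with overlapping brains.

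The linker variant *H1f10* was nearly equal in both diets. Its level was 67.8, 69.1, 66.9 and 68.6 CPM in CDD and 70.3, 69.7, 68.0 and 64.4 CPM in ND (log2 fold change -0.00, SE 0.04). *H2aj*, which encodes an H2A close in sequence to the RD forms, had 29.0, 30.3, 34.6 and 27.1 CPM in CDD and 35.2, 33.8, 33.5 and 31.7 CPM in ND (log2 fold change -0.15, SE 0.07, edgeR adjusted p = 0.198). Its CDD replicate 3 lay among the ND brains, and without that brain the log2 fold change was -0.22 (edgeR adjusted p = 0.0297). *H3f4* ranged from 0.580 to 1.30 CPM in CDD and from 0.725 to 1.09 CPM in ND, with a log2 fold change of -0.13 (SE 0.28).

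Summed over each brain, variant transcripts reached 2744, 2692, 2706 and 2628 CPM in CDD and 2616, 2668, 2584 and 2556 CPM in ND. The means were 2692 ± 48.3 and 2606 ± 48.2 CPM (SD, n = 4), and the ranges overlapped. By family, the H2A variants summed to 887.9 ± 17.7 CPM in CDD and 815.3 ± 32.4 in ND, the H1 variants to 314.4 ± 10.98 and 295.8 ± 8.24, and the H3 variants to 1490 ± 35.3 and 1495 ± 16.5. For H2A every CDD sum lay above every ND sum, at 871.1 CPM or more against 861.9 or less. That sum includes the 2 variants that passed, *H2ax* (means of 116.5 and 93.7 CPM) and *H2az1* (222.5 and 197.2 CPM). It is thus not separate from their rises, and *H2aj* in the same sum was lower in CDD (30.3 and 33.6 CPM). The sums are described without a test.

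*H2bu2*, the most abundant RD gene, had 90.1, 78.4, 92.9 and 71.7 CPM in CDD and 87.4, 87.7, 86.7 and 81.2 CPM in ND. Its CDD brains spread both above and below the ND brains, and the log2 fold change was -0.04 (SE 0.07, edgeR adjusted p = 0.782). *H2bc21* had 20.3, 16.6, 20.4 and 20.96 CPM in CDD and 19.5, 20.5, 17.8 and 16.8 CPM in ND (log2 fold change 0.07, SE 0.08, edgeR adjusted p = 0.661). *H1f2* encodes a linker histone of dividing cells, and it had 7.22, 5.42, 6.51 and 6.33 CPM in CDD and 6.41, 7.06, 6.97 and 5.77 CPM in ND (log2 fold change -0.04, SE 0.11). The diets overlapped in each of these 3 genes.

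The H4 gene *H4c9* had 6.73, 5.27, 7.27 and 3.86 CPM in CDD and 4.59, 5.16, 5.204 and 4.44 CPM in ND. Its 3 higher CDD brains lay above all ND brains and CDD replicate 4 below them (log2 fold change 0.26, SE 0.16, edgeR adjusted p = 0.340). Without CDD replicate 4 it was 0.41 (edgeR adjusted p = 0.0451), and without CDD replicate 3 it was 0.13 (edgeR adjusted p = 0.652). The core H2B gene *H2bc4* had 4.86, 5.01, 5.46 and 3.89 CPM in CDD and 5.18, 4.25, 3.35 and 4.00 CPM in ND, a log2 fold change of 0.20 (SE 0.14). The H3 gene *H3c15*, which shares 61.6% of its windows with other genes, had 1.09, 1.10, 0.860 and 0.875 CPM in CDD and 0.731, 0.688, 0.838 and 1.04 CPM in ND (log2 fold change 0.24, SE 0.23). In both, brains of the diets were intermixed.

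Of the 17 other RD genes tested, counting *H3c15*, each log2 fold change had an SE between 0.23 and 0.43. The highest value was that of *H2ac20*, an H2A gene, at 1.05 (SE 0.39, edgeR adjusted p = 0.0961), the lowest adjusted p of an RD gene. It rested on 21, 10, 37 and 20 reads in the CDD brains and on 9, 16, 8 and 6 in the ND brains. CDD replicate 2 lay below ND replicate 2, so the diets overlapped. Without CDD replicate 2 its log2 fold change was 1.28 (edgeR adjusted p = 0.0434), and without ND replicate 2 it was 1.42 (edgeR adjusted p = 0.0475). Without CDD replicate 3 it was 0.80 (edgeR adjusted p = 0.232), and without ND replicate 4 it was 0.87 (edgeR adjusted p = 0.254). Only 1 ND brain was above the level of the filter.

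*H3c6* had 0.332, 0.319, 0.441 and 0.452 CPM in CDD and 0.176, 0.250, 0.0869 and 0.377 CPM in ND (log2 fold change 0.80, SE 0.41, edgeR adjusted p = 0.244). The most negative values were those of *H2bc11*, at -0.59 (SE 0.38, edgeR adjusted p = 0.384), and *H4c4*, at -0.37 (SE 0.43, edgeR adjusted p = 0.661). *H2bc11* had 0.151 to 0.580 CPM in CDD and 0.347 to 0.841 CPM in ND, and *H4c4* 0.203 to 0.483 and 0.146 to 0.667 CPM. Over the 22 RD genes, 15 values were above 0 and 7 below. Several of them passed the filter mainly through 1 diet, so no direction is read from this tally. *H3c6* was one, with 4 CDD brains and 1 ND brain above the filter level. With SEs of 0.23 to 0.43, a difference of the size seen in *H2ax* was not detectable at this depth in the 17 RD genes outside the top 5. In *H1f2*, *H2bc4* and *H4c9*, with SEs of 0.11, 0.14 and 0.16, such a difference could also be missed.

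**Figure D4:**
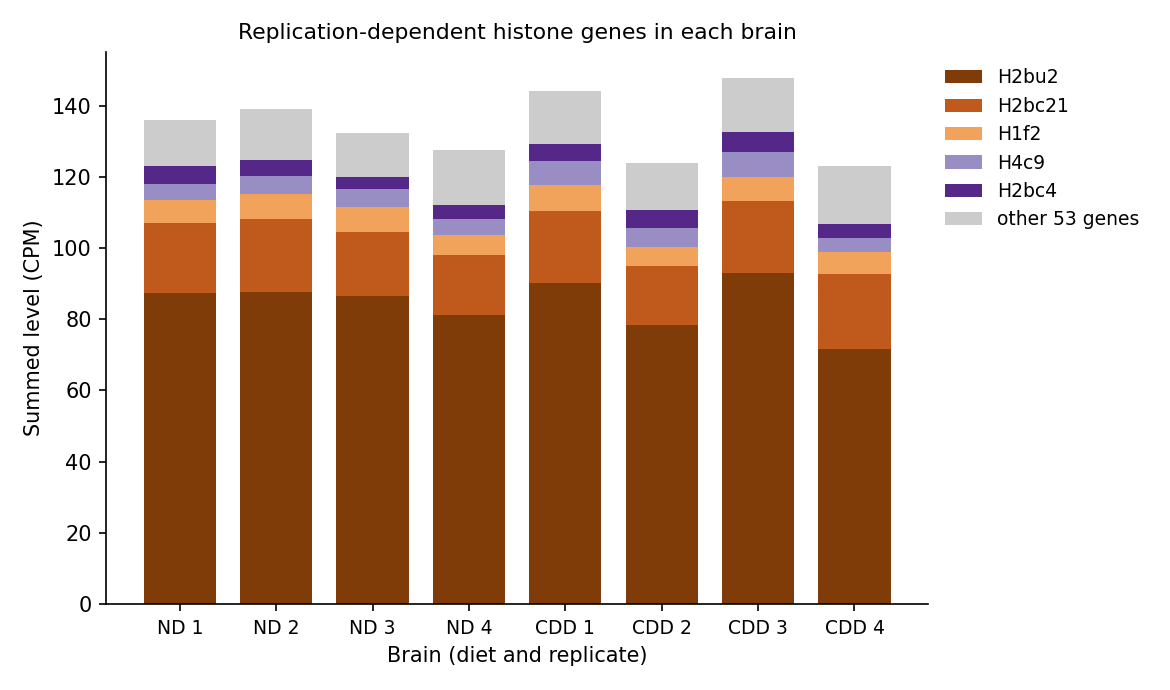
Summed level in CPM of the 58 RD histone genes in each brain (bars from 0), divided into the 5 genes with the most reads and the other 53 together. The sums run from 123.0 to 147.8 CPM in CDD and from 127.6 to 139.0 CPM in ND, and H2bu2 makes up most of every bar.

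The mean sum of RD transcripts differed between the diets by less than the SD of either. It was 144.0, 123.8, 147.8 and 123.0 CPM in the CDD brains and 135.9, 139.0, 132.2 and 127.6 CPM in the ND brains, with means of 134.7 ± 13.1 and 133.7 ± 4.93 CPM (SD, n = 4). The ND brains lay within the range of the CDD brains. Without the 5 most abundant genes the sums were 14.8 ± 1.30 CPM in CDD and 13.7 ± 1.47 CPM in ND, again with overlap. RD H2B genes, the largest family, summed to 110.95 ± 11.1 CPM in CDD and 111.8 ± 4.79 in ND. RD H4 genes summed to 8.72 ± 1.51 CPM in CDD and 7.77 ± 0.368 in ND, RD H2A genes to 3.81 ± 0.611 and 3.18 ± 0.729, RD H3 genes to 3.87 ± 0.260 and 3.62 ± 0.626, and RD H1 genes to 7.30 ± 0.880 and 7.30 ± 0.537.

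Within each library, RD genes took 4.99%, 4.40%, 5.18% and 4.47% of histone reads in CDD and 4.94%, 4.95%, 4.87% and 4.75% in ND. The 95% Wilson interval was 4.27% to 4.53% in the lowest brain, CDD replicate 2, and 5.06% to 5.31% in the highest, CDD replicate 3. These intervals cover counting error only. The means were 4.76 ± 0.384% and 4.88 ± 0.0904% (SD, n = 4). The CDD brains thus spread more widely than the ND brains and enclosed them. The difference of the means, CDD minus ND, was -0.12 percentage points with all brains and 0.0021 without CDD replicate 2.

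Some classes of RNA other than mRNA were also summed in each brain. Of 11 listed RNAs made without a poly-A tail, 5 were in the table, and they summed to 1.01 to 4.01 CPM in CDD and 0.438 to 1.46 CPM in ND. Only 1 of them, *Rn7sk*, passed the filter. Mitochondrial rRNA summed to 543.5, 695.3, 492.1 and 821.0 CPM in CDD and to 603.7, 472.4, 507.9 and 488.5 CPM in ND. CDD replicate 4 was highest in both, and *Rn7sk* alone gave 3.77 of its 4.01 CPM in the list. How much RNA without a tail the beads retained was not tested. Small nuclear RNA genes summed to 37.7 ± 2.82 CPM in CDD and 35.3 ± 1.09 CPM in ND, and small nucleolar RNA genes to 63.8 ± 2.49 and 64.3 ± 1.88 CPM. The highest brain was CDD replicate 4 for small nuclear RNA, at 41.4 CPM, and ND replicate 2 for small nucleolar RNA, at 66.7 CPM.

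S phase is when RD histone genes are transcribed, and its genes were higher in CDD brains. Of 21 tested, 14 rose in CDD and 0 fell by edgeR, beside 4.24% and 4.59% of all genes. At an unadjusted edgeR p under 0.05 the counts were 18 and 0, beside 23.9% of all genes in either direction. limma-voom and DESeq2 also gave 14 and 0. Their median log2 fold change was 0.27. *Pola1*, a subunit of the polymerase that starts new strands, had a log2 fold change of 0.47 (SE 0.07, edgeR adjusted p = 0.00116). The helicase subunits *Mcm2* and *Mcm5* and *Rrm1*, which makes deoxynucleotides, each stood at 0.32. The 21 genes summed to 1105 to 1187 CPM in CDD and to 934.1 to 1025 CPM in ND. In bulk RNA, more cells of a type and more RNA per cell cannot be told apart.

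Of 8 genes of neural progenitors, the dividing cells of this tissue, 3 rose (*Nes*, *Pax6* and *Vim*) and 0 fell, beside 4.24% and 4.59% of all genes. At an unadjusted edgeR p under 0.05 the counts were 6 and 0. limma-voom and DESeq2 gave 3 and 0. They summed to 1536 to 1696 CPM in CDD and 1399 to 1477 CPM in ND. *H2ax* and *H2az1* were higher in CDD brains, as were most of the S phase genes and some of the progenitor genes. Whether these values moved together from brain to brain was not tested, nor was the part of either list in the histone values. Of 8 neuronal genes 0 rose and 1 fell. Among other cell types, 2 of 10 erythroid genes rose (*Hbb-y* and *Hba-x*) and 0 fell, while the median log2 fold change of the 10 was -0.28. Of 5 endothelial genes 0 rose and 1 fell. In 8 microglial genes 0 rose and 2 fell, in 5 meningeal genes 1 rose and 2 fell, and 0 of 4 choroid plexus genes did either. These counts stand beside the same shares of all genes, 4.24% higher and 4.59% lower in CDD.

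Another list held factors that transcribe RD genes or trim their mRNAs. Of 20 tested 1 rose and 0 fell by edgeR, beside 4.24% and 4.59% of all genes. The counts were 0 and 0 by limma-voom and 2 and 0 by DESeq2. At an unadjusted edgeR p under 0.05 stood 6 and 2, beside 23.9% of all genes in either direction. The one that rose was *Casp8ap2*, a protein of the bodies where RD genes are transcribed, with a log2 fold change of 0.20 (SE 0.06, edgeR adjusted p = 0.0454). *Slbp*, the protein that binds the stem-loop, stood at 0.09 (edgeR adjusted p = 0.356), and *Npat*, an activator of RD genes, at 0.06 (edgeR adjusted p = 0.633). *Lsm10* and *Lsm11*, parts of the U7 particle that cuts the 3′ end, stood at -0.23 and -0.13 (edgeR adjusted p = 0.143 and 0.124). The list's median was 0.08.

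Histone chaperones carry histones to DNA. Of 24 tested 7 rose and 0 fell by edgeR, beside 4.24% and 4.59% of all genes. The counts were 8 and 0 by limma-voom and 9 and 0 by DESeq2. At an unadjusted edgeR p under 0.05 stood 11 and 1, beside 23.9% of all genes in either direction. Their median log2 fold change was 0.12. *Chaf1a*, a subunit of the factor that places H3 and H4 on new DNA, had 0.33 (SE 0.06, edgeR adjusted p = 0.00378). *Anp32e*, which removes H2A.Z, had 0.22 (edgeR adjusted p = 0.00959). *Mms22l*, a replication repair factor, had 0.29, and *Nap1l1*, a carrier of H2A and H2B, had 0.18. *Tonsl*, in the same list, stood at 0.02 (edgeR adjusted p = 0.891). The H3.3 chaperones *Hira* and *Daxx* stood at -0.04 and 0.01. Outside the rule, *Cenpa*, the H3 of centromeres, stood at 0.21 (SE 0.07, edgeR adjusted p = 0.0599), and *H2aw*, a neighbour of *H2bu2*, at -0.12 (edgeR adjusted p = 0.424).

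**Figure D5:**
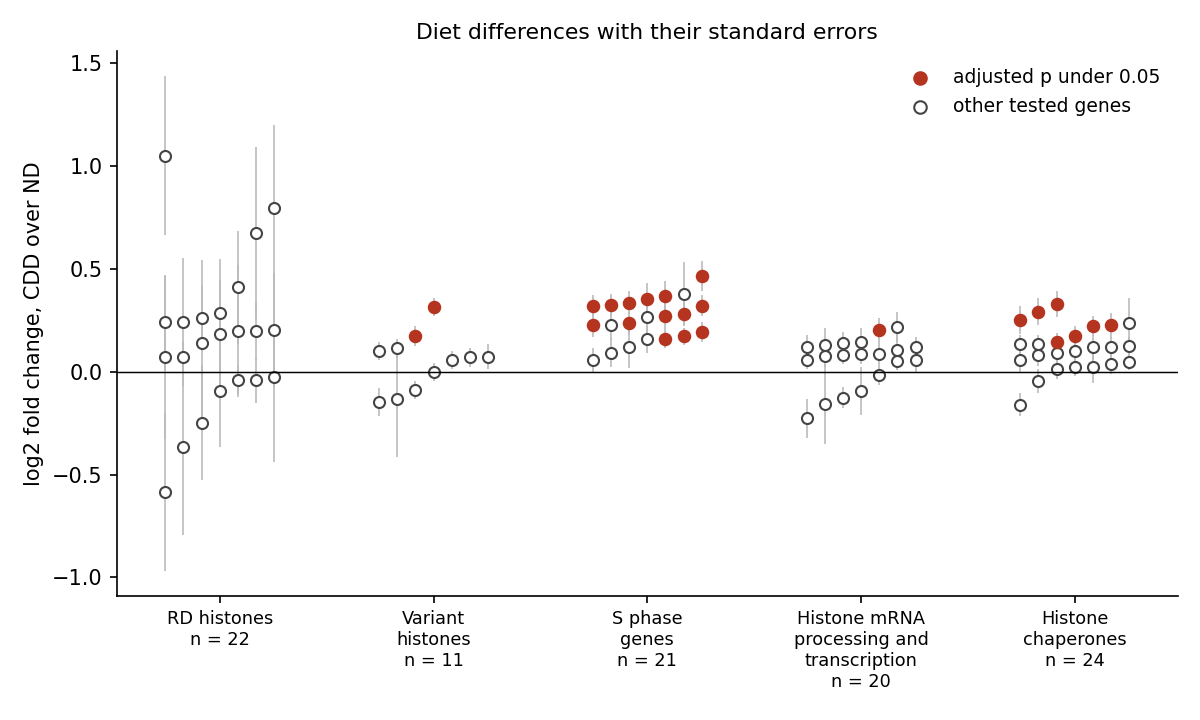
Log2 fold change of CDD over ND, with its standard error (grey lines), for each gene tested among RD histones, variant histones and 3 lists; filled red points passed an adjusted p of 0.05 in edgeR. Of 21 S phase genes 14 passed and of 22 RD histones 0, beside 8.83% of all genes tested. The standard errors of the RD histones are mostly several times longer than those of the variants.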

How the data were processed

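Poly-A RNA of 8 whole brains was sequenced in bulk, 4 per maternal diet, and samples were grouped by the diet in their labels. The values used here are the counts of reads that the authors assigned to each gene in each brain, deposited as whole numbers with no scaling. Per the submitters' processing notes the tools were HISAT2 2.0.5, featureCounts 1.5.0-p3 and DESeq2 1.20.0; the genome build, the strand setting and the treatment of reads that match several genes are not given in the sources used here. Reads of near-identical histone genes, or of a gene and its antisense partner, can therefore be split or lost. The authors also deposited a normalized signal (the count divided by 1 size factor per library), its mean per diet, FPKM values, and the log2 fold change, p-value and adjusted p-value of their own comparison, and none of these was used. Shorter deposited lists of 4584, 2324 and 2260 genes hold the same counts as the full table and were not used. The listed gene length served for levels per kb.

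Counts were tested with edgeR 4.0.16 in R 4.3.3 (TMM, filterByExpr, robust quasi-likelihood fit with diet as the only term, Benjamini-Hochberg over 19367 genes, threshold 0.05). The SE of a log2 fold change is its size divided by the square root of the F statistic. The script was tested on simulated data. Alternatives were DESeq2 1.42.0, limma-voom (limma 3.58.1), RLE and upper-quartile scaling, no filter or at least 10 counts in every brain, a replicate block, a threshold of 0.01 and leaving out each brain. Summed levels, shares and lists were described by counts, medians and values per brain, with no test over the members. Of pairs of libraries from the same diet the most alike still differed beyond sampling noise (chi-square per degree of freedom 3.76), so none was counted as a repeat.

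Transcript sequences and 3′ ends were read from GENCODE M21 (GRCm38), where all 70 members were matched by gene ID. Named members were variants with a mean of at least 1 CPM, the 6 most abundant RD genes, every gene past the threshold and the 2 largest rises and falls of each class. From the other lists up to 4 genes past the threshold were named, and some further genes were chosen for their known role after their values were seen. The members and the gene lists were chosen with earlier results of these data known.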

Additional observations from a re-analysis of the deposited data

Results flagged for a closer look

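Of 48 groups of 4 brains examined (the named members, the summed levels and the RD share within each diet), 2 held a brain far from the other 3 by Dixon's criterion, and chance alone gives about 2.4. *H2bu2* was low in ND replicate 4, at 6.34 on the log2 CPM scale, against 6.44 to 6.45 in the other ND brains. *H2bc21* was low in CDD replicate 2, the brain with many Hox counts, at 4.06 on the log2 CPM scale, against 4.35 to 4.39 in the other CDD brains. Without CDD replicate 2 the log2 fold change of *H2bc21* was 0.14 (edgeR adjusted p = 0.282).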

How the results depend on the processing

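*H2ax* passed under all 15 alternative fits and *H2az1* under 11, the exceptions being those without CDD replicate 1 or ND replicate 1, 3 or 4. Leaving out 1 brain gave 0 to 1 RD genes, 1 to 3 variants and 471 to 2495 genes in all past the threshold, with 471, 688 and 615 without ND replicate 3, 1 and 4. The RD gene was *H2ac20* without CDD replicate 2 or ND replicate 2 and *H4c9* without CDD replicate 4, and the third variant was *H2aj*, without CDD replicate 3. At an adjusted p of 0.01, 1 variant (*H2ax*) and 477 genes in all passed. Of the named genes 4 changed sign: *H1f10* was 0.0025 with RLE scaling, 0.00038 without a filter, 2.0e-05 with limma-voom and 0.0038 with DESeq2, and leaving out 1 brain gave -0.027 to 0.017 for *H1f10*, -0.097 to 0.023 for *H2bu2*, -0.10 to 0.030 for *H1f2* and -0.64 to 0.0025 for *H4c4*, whose value was -0.37 with all brains and 0.0025 without ND replicate 4 (log2 fold change; the cause was not tested). The difference in RD share of histone counts, CDD minus ND, was -0.12 percentage points, -0.63 per listed length, and -0.26 to 0.00 with 1 brain left out. *H2ac20*, *H3c6*, *H2bc11* and *H4c4* had no adjusted p in DESeq2 and failed the filter of 10 counts.

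The replicate numbers were not taken as pairs, since not every same-numbered pair deviated together. The correlation of their deviations was 0.10, -0.13, 0.12 and 0.23, and 3 of 4 matched best with their own number, a hint of pairing from the data alone. With a replicate block 1812 genes passed (1570 of them among the 1710), 2 variants and 0 RD genes, and *H1f10* stood at 3.6e-05. In the 17 RD genes tested outside the top 5, whose SEs were 0.23 to 0.43, a difference such as that of *H2ax* was not detectable at this depth. It could also be missed in *H1f2*, *H2bc4* and *H4c9*, with SEs of 0.11, 0.14 and 0.16.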
